A study of Mus musculus with 7 samples.

Results

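The 10 genes described here are the 3 TGF-β ligands *Tgfb1*, *Tgfb2* and *Tgfb3*, the related ligand *Bmp5*, the receptors *Tgfbr1*, *Tgfbr2* and *Tgfbr3*, and the intracellular mediators *Smad2*, *Smad3* and *Smad7*. They were matched by gene name among the 55536 genes of the deposited matrices, and all 10 were found. Their transcripts were followed in nuclei of the mouse hippocampus, cell type by cell type. Between genotypes, *Tgfbr2* had the largest called changes among members with enough counts for the main fit, being higher in microglia, astrocytes and dentate granule neurons of Arctic48 mice than in those of wild-type mice. *Tgfb2* was lower in Arctic48 dentate granule neurons. In these neurons neither *Tgfbr2* nor *Tgfb2* was called in the main fit when only mice without PMX205 were compared. *Tgfbr3* was higher in Arctic48 oligodendrocytes and *Tgfbr1* lower in Arctic48 microglia when nuclei were named by cluster, but neither was called once the nuclei of a single unnamed cluster were named one by one. No member passed the test for an effect of PMX205.

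The mice were 10 months old. Arctic48 (Arc) mice are hemizygous for a human *APP* transgene with the Indiana, Swedish and Arctic mutations on a C57BL6/J background. Transgene-negative mice of the same cross served as wild-type (WT) mice. PMX205, a cyclic peptide antagonist of the complement receptor C5aR1, was given at 20 µg/ml in the drinking water for 12 weeks per the labels (WT-PMX and Arc-PMX), although the ages in the study's text give a somewhat shorter course, and vehicle mice drank MilliQ water (WT-veh and Arc-veh). All mice were housed singly. Nuclei of 1 mouse filled a well, each group had 6 such wells, and 3 were from females (named F1, F2, F3) and 3 from males (named M1, M2, M3), so that the well is the replicate throughout. The wells held 1150 to 3112 nuclei after filtering, with 4389302 to 30001858 transcripts per well. Levels are given as CPM, the count of a gene scaled to a fixed total of all transcripts that a cell type had in a well, and only wells with at least 10 nuclei of the type were used. Since RNA length is not taken into account, levels are compared between cell types or groups for 1 gene, and never between genes.

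TGF-β ligands are secreted in a latent form and, once released, bind the receptor TGFBR2, which then phosphorylates TGFBR1. The activated receptor complex phosphorylates SMAD2 and SMAD3, which enter the nucleus and regulate transcription, while SMAD7 is an inhibitory Smad that is induced by the pathway and acts against it. TGFBR3, also called betaglycan, is a coreceptor that presents ligand, TGF-β2 in particular. BMP5 belongs to the bone morphogenetic proteins, which signal through other receptors and other Smads. In brain, TGF-β signalling is best known for maintaining the homeostatic state of microglia. The study asked, among other things, whether C5aR1 antagonism alters ligand and receptor signalling between hippocampal cell types in the Arctic model.

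Promoters are shown for the 3 members in which a receptor or ligand differed between genotypes in microglia or dentate granule neurons and for which a sequence was at hand. Each runs 5′ to 3′ from 250 bases before to 50 bases after the start of transcription (RefSeq, GRCm38.p6). *Tgfbr2* is at chr9:116175314-116175613 on the minus strand, *Tgfb2* at chr1:186705940-186706239 on the minus strand, and the upstream start of *Tgfbr1* at chr4:47352972-47353271 on the plus strand. Capitals mark the Smad box, CAGAC or its reverse complement GTCTG, the short element that SMAD3 binds.
Tgfbr2: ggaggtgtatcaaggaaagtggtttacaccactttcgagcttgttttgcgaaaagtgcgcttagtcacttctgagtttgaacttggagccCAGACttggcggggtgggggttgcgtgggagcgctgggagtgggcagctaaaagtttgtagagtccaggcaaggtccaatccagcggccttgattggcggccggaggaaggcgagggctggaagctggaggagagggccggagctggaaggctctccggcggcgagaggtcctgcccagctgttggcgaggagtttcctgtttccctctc
Tgfb2: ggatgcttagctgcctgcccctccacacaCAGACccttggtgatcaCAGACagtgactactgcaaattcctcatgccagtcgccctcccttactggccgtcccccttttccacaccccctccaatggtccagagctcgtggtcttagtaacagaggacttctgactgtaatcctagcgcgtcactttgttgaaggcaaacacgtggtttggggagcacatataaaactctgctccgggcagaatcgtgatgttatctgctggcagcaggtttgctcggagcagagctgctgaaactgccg
Tgfbr1: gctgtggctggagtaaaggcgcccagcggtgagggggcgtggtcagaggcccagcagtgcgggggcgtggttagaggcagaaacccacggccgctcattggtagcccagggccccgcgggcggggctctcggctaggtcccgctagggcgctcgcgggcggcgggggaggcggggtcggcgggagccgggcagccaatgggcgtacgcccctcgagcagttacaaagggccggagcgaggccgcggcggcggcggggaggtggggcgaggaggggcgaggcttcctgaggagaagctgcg

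The window of *Tgfbr2* held 1 Smad box, that of *Tgfb2* held 2, and that of the upstream *Tgfbr1* start held none. A Smad box on either strand was found in 49.6% of all 32817 promoter windows of this length, so that a promoter with such a box is common. The Smad palindrome GTCTAGAC, present in 0.213% of all windows, was in none of the 7 windows read for the members. Sp1 boxes (GGGCGG), present in 35.6% of all windows, numbered 6 in the window of *Tgfb1* and 2 each in those of *Smad3* and the upstream *Tgfbr1* start. In the mm10 annotation *Tgfbr2* spans chr9:116084293-116175360, *Tgfb2* chr1:186622792-186705989, *Tgfbr1* chr4:47353222-47414931 and *Tgfbr3* chr5:107106570-107289629.

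Nuclei were assigned to cell types by cluster, from marker genes, so that each name stands for microglia-like, astrocyte-like and so on. Of 43886 nuclei, 4011 were left unnamed, among them a cluster of 967 nuclei, 342 of them WT, that was led by *Inpp5d*, *Ly86* and *Csf1r* and scored for both oligodendrocyte and microglial markers. Named one by one by their highest marker score, 151 WT and 375 Arc nuclei of it were microglia and 144 WT and 152 Arc nuclei oligodendrocytes. The differences of *Tgfbr1* in microglia and *Tgfbr3* in oligodendrocytes are given with both namings. Among named nuclei, 14 types had enough wells to be ranked. All 12 microglial markers were counted in the microglia of both genotypes. As a check of the genotype labels, *App* in oligodendrocytes was at 904 to 1863 CPM in the 12 WT wells and at 1977 to 4191 CPM in the 12 Arc wells, which therefore did not overlap. A WT sample was excluded by the study for Arctic-like expression without the well being named, and all wells were kept here.

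Among the ligands, *Tgfb1* was a microglial transcript in these nuclei. Its level was 209 ± 123 CPM (SD, n = 21 wells) in microglia, 50.7 ± 69.2 CPM in pericytes or mural cells and 33.6 ± 32.2 CPM in endothelial cells, and at most 3.08 CPM in the other 11 types. Microglia exceeded pericytes or mural cells in 12 of 13 wells that held both (adjusted p = 0.00267, two-sided sign-flip permutation test over wells). The vascular values rest on few transcripts: 7 of 13 pericyte wells and 5 of 17 endothelial wells had none.

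*Tgfb2* had a different distribution and was nearly absent from microglia. It was at 294.5 ± 46.5 CPM (n = 12) in choroid plexus epithelial cells, which secrete cerebrospinal fluid, and next at 132 ± 85.2 CPM in endothelial cells, a difference present in 9 of 9 wells (adjusted p = 0.0188, exact sign-flip permutation test, where 9 wells can give no raw p below 0.00391). Pericytes or mural cells (103 CPM), astrocytes (92.3 ± 20.9 CPM, n = 24), CA3 pyramidal neurons (85.5 ± 13.5 CPM), ependymal cells and dentate granule neurons (56.6 CPM) followed, and no neighbours among these differed beyond their spread. In microglia it was at 3.97 CPM, with none of its transcripts in the 9 WT wells.

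*Tgfb3* was low in each type. Its highest mean, 23.4 ± 50.6 CPM in pericytes or mural cells, came from 3 of 13 wells, and oligodendrocytes (19.9 ± 17.0 CPM), interneurons (16.8 ± 5.84 CPM) and astrocytes (11.4 ± 8.09 CPM) held it more evenly. Well by well, pericytes were above oligodendrocytes in 3 of 13 wells (adjusted p = 0.0411, permutation test), opposite in direction to the means. Pericytes held 7 *Tgfb3* transcripts in 310 nuclei, and 10 of their 13 wells had none. The test therefore cannot tell a lower level from too few transcripts. Interneurons were above astrocytes in 20 of 24 wells (adjusted p = 0.00267, permutation test). No *Tgfb3* transcript was counted in microglial nuclei.

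*Bmp5* marked the mesenchymal cells of vessels and meninges. It reached 315 ± 189 CPM (n = 13) in pericytes or mural cells and 199 ± 72.9 CPM (n = 12) in fibroblasts, which were not called different (5 of 9 shared wells, adjusted p = 0.613, exact permutation test). The third type, choroid plexus epithelial cells, was at 13.7 ± 9.11 CPM and all others were at 2.65 CPM or less.

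**Figure D1:**
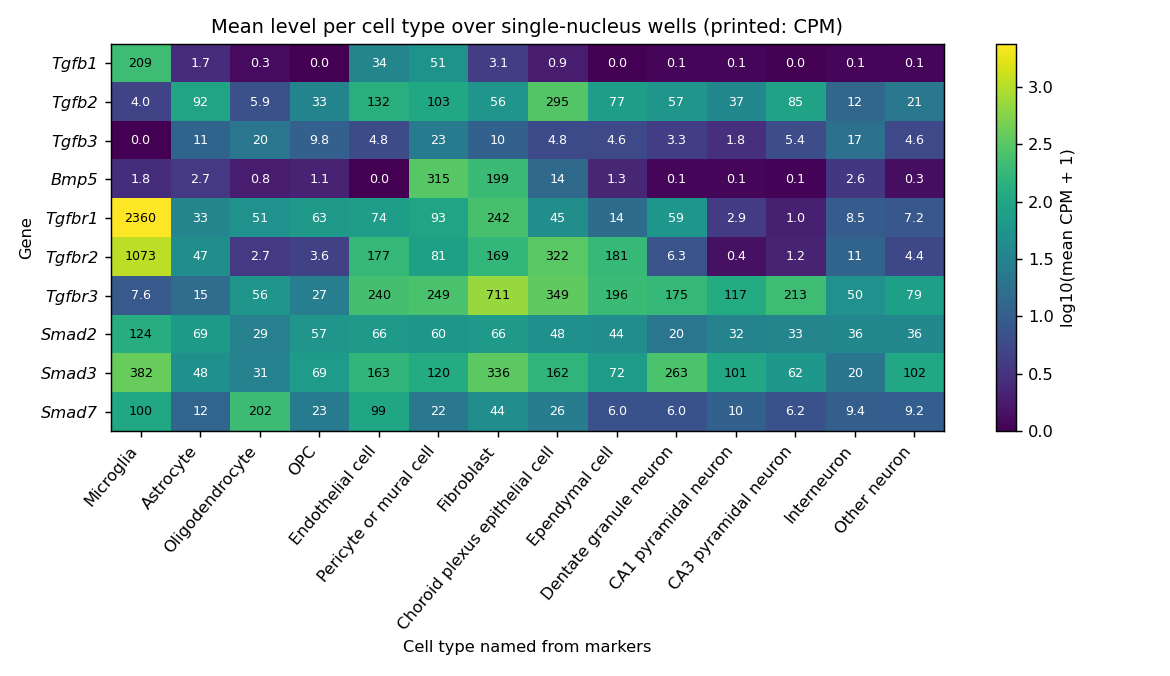
Mean CPM of each of the 10 genes (rows) in the 14 cell types (columns), averaged over all wells with at least 10 nuclei of the type; colour is log10(mean CPM + 1) and the printed value is the mean CPM. Rows are to be read across cell types: *Tgfb1*, *Tgfbr1* and *Tgfbr2* peak in microglia, *Tgfb2* in choroid plexus epithelial cells, *Smad7* in oligodendrocytes and *Bmp5* in pericytes or mural cells.

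Both signalling receptors were highest in microglia by a wide margin. *Tgfbr1*, the kinase that phosphorylates Smads, was at 2360 ± 570.5 CPM (n = 21) there and at 242 ± 90.5 CPM (n = 12) in fibroblasts, the next type, and microglia were higher in 12 of 12 wells (adjusted p = 0.00305, permutation test). Astrocytes, oligodendrocytes, oligodendrocyte progenitor cells (OPCs) and dentate granule neurons held between 33.4 and 63.0 CPM, and CA1 and CA3 pyramidal neurons 2.91 and 0.996 CPM. *Tgfbr2*, the ligand-binding kinase, was at 1073 ± 383 CPM (n = 21) in microglia and at 322 ± 79.6 CPM (n = 12) in choroid plexus epithelial cells (11 of 11 wells, adjusted p = 0.00638, permutation test). Ependymal cells (181 CPM), endothelial cells (177 CPM) and fibroblasts (169 CPM) followed, and neither ependymal and endothelial cells (adjusted p = 0.914, permutation test) nor endothelial cells and fibroblasts (adjusted p = 0.981, permutation test) were called different. Astrocytes, at 47.2 CPM, were above interneurons, at 11.1 CPM, in 24 of 24 wells (adjusted p = 0.000186, permutation test). Oligodendrocytes and OPCs held *Tgfbr2* at 2.68 and 3.62 CPM.

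The coreceptor *Tgfbr3* had another distribution. It was lowest in microglia (7.62 CPM) and astrocytes (15.3 CPM) and highest in fibroblasts (711 ± 273 CPM, n = 12), choroid plexus epithelial cells (349 ± 74.9 CPM), pericytes or mural cells (249 CPM) and endothelial cells (240 CPM). Principal neurons held it as well: CA3 pyramidal neurons were at 213 ± 21.9 CPM, dentate granule neurons at 175 CPM and CA1 pyramidal neurons at 117 CPM, and the step from dentate granule to CA1 neurons was present in 24 of 24 wells (adjusted p = 0.000186, permutation test).

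The Smads were more widely shared. *Smad2* ranged only from 20.4 CPM in dentate granule neurons to 124 ± 52.5 CPM (n = 21) in microglia, which were above astrocytes (68.5 CPM) in 19 of 21 wells (adjusted p = 0.00039, permutation test). *Smad3* was at 382 ± 95.8 CPM in microglia and 336 ± 138 CPM in fibroblasts, which were not called different (adjusted p = 0.258, permutation test), and at 263 ± 50.6 CPM (n = 24) in dentate granule neurons, above CA1 (101 CPM) and CA3 (61.9 CPM) pyramidal neurons. *Smad7*, the inhibitory Smad, was highest in oligodendrocytes, at 202 ± 54.0 CPM (n = 24), and microglia (99.7 CPM) were lower in 20 of 21 wells (adjusted p = 0.000186, permutation test). Microglia and endothelial cells (99.2 CPM) were not called different.

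Over all members, 34 of the 130 pairs of neighbouring types differed, and with CPM scaled by TMM over all types 27 did. With nuclei named one by one by marker score, which gave 16 types, 16 of 150 such pairs differed. With the TMM scaling the highest type was interneurons for *Tgfb3* and dentate granule neurons for *Smad3*. Over all alternatives tried for these levels, doublets kept among them, the highest type of a member changed in 4 cases, these included. Types with few nuclei (pericytes, endothelial cells, ependymal cells and fibroblasts) had 310 to 428 nuclei each, so their wells are the noisiest. Across the 14 types, the genes most like each member among 9777 were *Trim14*, *9930111J21Rik2* and *Tpp2* for *Tgfb1* (Pearson r of log2(CPM + 1) 0.98 to 0.97), *Tead1* and *Tnfrsf19* for *Tgfb2* (0.94 and 0.93), *Acyp2*, *Bcar1* and *Cadm4* for *Tgfb3* (0.85 to 0.84), and *Ccr9*, *Tbx15* and *Col1a2* for *Bmp5* (0.96). For the receptors these were *Hnrnpul1*, *Paip1* and *Fam172a* for *Tgfbr1* (0.95 to 0.93), *Mapkapk3*, *Dhrs3* and *Gpr146* for *Tgfbr2* (0.95 to 0.93), and *Rcor3*, *Efcc1* and *Braf* for *Tgfbr3* (0.90 to 0.83). For the Smads they were *Etv6*, *Parp9* and *Tap2* for *Smad2* (0.95), *Rilpl1*, *Rcor1* and *Actr3* for *Smad3* (0.89 to 0.85), and *Crybg3*, *Herc4* and *Pdcd6ip* for *Smad7* (0.96 to 0.94). These correlations describe 14 types from the same wells, which also differ in depth.

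The levels by group follow for types in which members were high and no difference between genotypes was called. *Tgfb2* in choroid plexus epithelial cells was at 228 to 387 CPM in WT-veh, 278 to 290 CPM in WT-PMX, 217 to 311 CPM in Arc-veh and 305 to 306 CPM in Arc-PMX. *Tgfbr2* in these epithelial cells was at 256 to 418.5 CPM, 191 to 290 CPM, 264 to 476 CPM and 283 to 296 CPM in the same order of groups. *Tgfbr3* there was at 171 to 404 CPM, 323 to 478.5 CPM, 297 to 389 CPM and 335.5 to 382 CPM. The PMX205 groups held 2 wells of this epithelium each, so it entered no test between groups.

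*Bmp5* in pericytes or mural cells was at 90.8 to 252 CPM in WT-veh, 121 to 305 CPM in WT-PMX, 65.6 to 672 CPM in Arc-veh and 216 to 540 CPM in Arc-PMX, and the medians of the Arc groups, 391 and 446 CPM, lay above those of the WT groups, 158 and 213 CPM. This type was not tested either. In the same cells *Tgfb1* was between 0 and 189 CPM in every group. In endothelial cells *Tgfb2* was at 89.3 to 159 CPM in WT-veh, 41.1 to 346 CPM in WT-PMX, 70.7 to 215 CPM in Arc-veh and 35.1 to 287 CPM in Arc-PMX. *Tgfbr1* in fibroblasts was at 177 to 274 CPM, 166 to 317 CPM, 121 to 386.5 CPM and 139 to 354 CPM in the same order.

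Among the Smads, *Smad2* in microglia was at 91.3 to 142 CPM in WT-veh, 51.7 to 249.8 CPM in WT-PMX, 89.1 to 175 CPM in Arc-veh and 60.0 to 164 CPM in Arc-PMX. *Smad3* in microglia was at 302 to 653 CPM, 356 to 569 CPM, 282 to 464 CPM and 260 to 458 CPM in that order. *Smad7* in oligodendrocytes was at 96.9 to 329 CPM, 153 to 230 CPM, 173 to 223.5 CPM and 136 to 349 CPM. The groups overlapped for all 3 Smads in these types.

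For the comparison of groups, sums per well were fitted by edgeR in the 11 types with at least 3 wells in each group, and 58 of 110 combinations of member and type had enough counts. *Smad3* was tested in 10 types, *Smad2* in 9, *Tgfbr1* and *Tgfbr3* in 8, *Tgfbr2* in 7, *Tgfb2* and *Smad7* in 6 and *Tgfb3* in 2, while *Tgfb1* was tested in microglia only and *Bmp5* in fibroblasts only. Adjusted p-values of these fits come from quasi-likelihood tests in edgeR, corrected by Benjamini-Hochberg over all genes of a type, and a difference is called below 0.05. The standard errors given with the edgeR fits follow from the same tests. Each is the absolute log2 fold change divided by the square root of the F statistic. Between Arc and WT over both waters, 6 of the 58 were called, 4 higher and 2 lower in Arc, against 3.53% of all genes and types tested, but shares differed between types: 20.8% of genes were called in microglia, 19.9% in astrocytes, 5.26% in oligodendrocytes and 1.6% in dentate granule neurons. The median log2 fold change was 0.07 over the members and -0.0010 over all genes. With vehicle alone, 2 of 58 were called (background 1.95% over all types, 12.5% in astrocytes and 11.8% in microglia). The contrasts share wells, so their calls are not independent of one another.

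*Tgfbr2* in microglia was at 522.5, 604, 700 and 734 CPM in the 4 WT-veh wells with enough microglia and at 327, 652, 810, 852 and 999 CPM in the 5 WT-PMX wells. In Arc-veh the wells ranged from 994 to 1525 CPM (median 1291) and in Arc-PMX from 1283 to 1552 CPM (median 1436). Vehicle wells of WT and Arc did not overlap, and of the WT-PMX wells 1 lay within the Arc range. The means were 689 ± 196 CPM (n = 9) in WT and 1360 ± 167 CPM (n = 12) in Arc, a log2 fold change of 1.003 ± 0.138 (SE, adjusted p = 7.54e-07), and with vehicle alone it was also 1.003 ± 0.20 (adjusted p = 0.000597). WT microglia were few, 12 to 47 per well against 55 to 159 in Arc, with a median depth of 822 against 1265 transcripts per nucleus. Endothelial markers were also higher in Arc microglia: the summed level of the 9 markers ranged from 0 to 182.5 CPM in WT, where *Cdh5*, *Cldn5*, *Abcb1a*, *Ly6c1* and *Mecom* were at 0, and from 178 to 540 CPM in Arc, where *Cldn5* and *Ly6c1* were at 0. Other marker lists moved the other way in the same nuclei. Dentate granule neuron markers summed to 1362 to 2537 CPM in WT and 840 to 1336 CPM in Arc microglia, and markers of *Slc17a6* excitatory neurons to 2997 to 4953 CPM and 1350 to 2680 CPM, both without overlap. These sums came from part of each list. *C1ql2*, *Dsp*, *Plk5* and *Tdo2* were at 0 in WT, *C1ql2* also in Arc, and *Slc17a6* itself was at 0 in both. The 9 general neuron markers summed to 711 to 6318 CPM in WT and 862 to 4986 CPM in Arc, with overlap. The 12 microglial markers summed to a median of 14879 CPM in WT and 11806 CPM in Arc. The part of other cells or depth in the difference was not tested, and endothelial nuclei themselves held *Tgfbr2* at 177 CPM.

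*Tgfbr2* in astrocytes ranged from 17.9 to 51.0 CPM in WT-veh (median 31.6) and from 14.98 to 33.6 CPM in WT-PMX (median 27.2). It ranged from 35.8 to 99.3 CPM in Arc-veh (median 63.1) and from 36.1 to 84.6 CPM in Arc-PMX (median 61.2). Only the WT-veh wells F1, M3 and M2 reached into the Arc range. The means were 29.6 ± 11.3 CPM in WT and 64.8 ± 21.5 CPM in Arc (12 wells each), which is a log2 fold change of 1.12 ± 0.19 (adjusted p = 1.14e-05), and it was 1.04 ± 0.27 with vehicle alone (adjusted p = 0.0058). The 12 microglial markers summed to 39.6 to 111 CPM in WT astrocytes and 81.3 to 165 CPM in Arc astrocytes. Of these, *Tyrobp* was at 0 in both genotypes and *C1qa* at 0 in WT only. In microglia the 12 summed to at least 10437 CPM. Ependymal markers summed to 33.6 to 87.7 CPM (median 50.3) in WT and 166 to 250.5 CPM (median 190) in Arc astrocytes, without overlap. Ependymal cells themselves held *Tgfbr2* at 181 CPM. Pericyte markers summed to 257 CPM (median) in WT and 392 CPM in Arc astrocytes, and depth rose from 1578 to 2858 transcripts per nucleus. CA1 pyramidal neuron markers summed to 167 to 291 CPM in WT and 308 to 499.6 CPM in Arc astrocytes, and fibroblast markers to 206 to 337 CPM and 76.4 to 151 CPM, the latter being lower in Arc, both without overlap. The part of these in the difference was not tested.

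*Tgfbr2* in dentate granule neurons was low but moved in the same direction. Wells ranged from 0.908 to 5.61 CPM in WT-veh (median 2.73), 1.34 to 6.12 CPM in WT-PMX (median 4.44), 2.83 to 12.4 CPM in Arc-veh (median 8.29) and 6.51 to 13.4 CPM in Arc-PMX (median 10.6). All Arc-PMX wells were above all WT wells, whereas 2 Arc-veh wells overlapped with WT. The log2 fold change was 1.30 ± 0.22 over both waters (adjusted p = 0.000431) and 1.30 ± 0.32 with vehicle alone, where it was not called (adjusted p = 0.0853). In the largest cluster of granule neurons alone it was 2.26 over both waters and 2.27 with vehicle alone, and called in both. Microglial markers summed to 28.7 CPM (median) in WT and 26.3 CPM in Arc granule neurons, with a highest Arc well of 60.4 CPM. Ependymal markers summed to 191 to 268 CPM in WT and 243 to 317 CPM in Arc granule neurons, and ependymal cells held *Tgfbr2* at 181 CPM. Depth was 5584 transcripts per nucleus (median) in WT and 8799 in Arc, and the part of these in the difference was not tested.

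**Figure D2:**
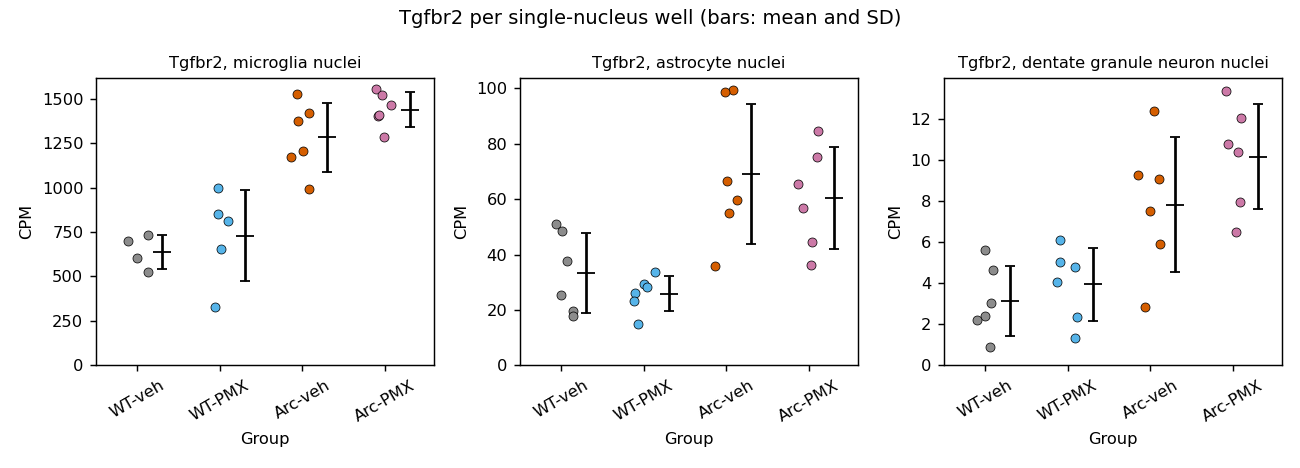
CPM of *Tgfbr2* in each well (points) of the 4 groups in microglia, astrocyte and dentate granule neuron nuclei, with the mean and SD of each group as a bar; the y axes start at 0 and differ between panels. The group means are higher in Arc than in WT in each panel, single wells of the genotypes overlap in each, and the Arc-veh and Arc-PMX wells overlap.

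In the other 4 types tested, *Tgfbr2* was not called. In fibroblasts its log2 fold change was 1.33 ± 0.35, as large as in neurons, but with 3 wells per group the adjusted p was 0.242, and no gene was called in fibroblasts at all. WT-PMX fibroblasts (41.5, 48.8 and 61.5 CPM) were the low group, while WT-veh (85.3, 129 and 274 CPM) overlapped with Arc-veh (186, 196 and 258 CPM) and Arc-PMX (209, 261 and 281 CPM). Endothelial cells (0.40 ± 0.39), interneurons (0.27 ± 0.22) and other neurons (0.01 ± 0.26) gave smaller values than their errors could separate from 0.

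The astrocytes fell into 3 clusters whose shares differed between genotypes, and the *Tgfbr2* values within them are given as a description, since the clusters were made from the same counts. A cluster led by *Grin2c*, *Rorb* and *Gm6145* held 90.5% of WT-veh and 87.8% of WT-PMX astrocytes but 32.9% of Arc-veh and 36.9% of Arc-PMX astrocytes. A cluster led by *Gfap*, the intermediate filament of reactive astrocytes, with *Gpam* and *Atp13a4*, held 1.35% and 2.38% in WT and 53.7% and 47.0% in Arc. Within the first cluster *Tgfbr2* was at 31.5 ± 13.2 CPM in WT-veh, 24.5 ± 8.40 CPM in WT-PMX, 26.3 ± 18.3 CPM in Arc-veh and, with PMX205, 26.6 ± 10.5 CPM in Arc, so that the 4 groups overlapped. In the *Gfap*-led cluster it was at 84.7 ± 30.6 CPM with vehicle and 75.6 ± 22.7 CPM with PMX205 in Arc, and no WT well had 10 such nuclei. Pooled over wells, 0 transcripts were counted in 20 WT-veh nuclei and 2 transcripts (21.0 CPM) in 35 WT-PMX nuclei of that cluster, against pooled levels of 75.8 and 75.0 CPM in Arc. The remaining cluster, led by *Aqp4*, *Gfap* and *Rfx4* with 8.18% to 16.2% of astrocytes, held 80.4 ± 63.7, 44.0 ± 38.6, 85.5 ± 44.6 and 61.5 ± 26.0 CPM in the groups in the order WT-veh, then WT-PMX, then Arc-veh and last Arc-PMX. The part of these shares in the difference over all astrocytes was not tested. In the largest cluster alone *Tgfbr2* had too few counts in astrocytes to be tested.

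**Figure D3:**
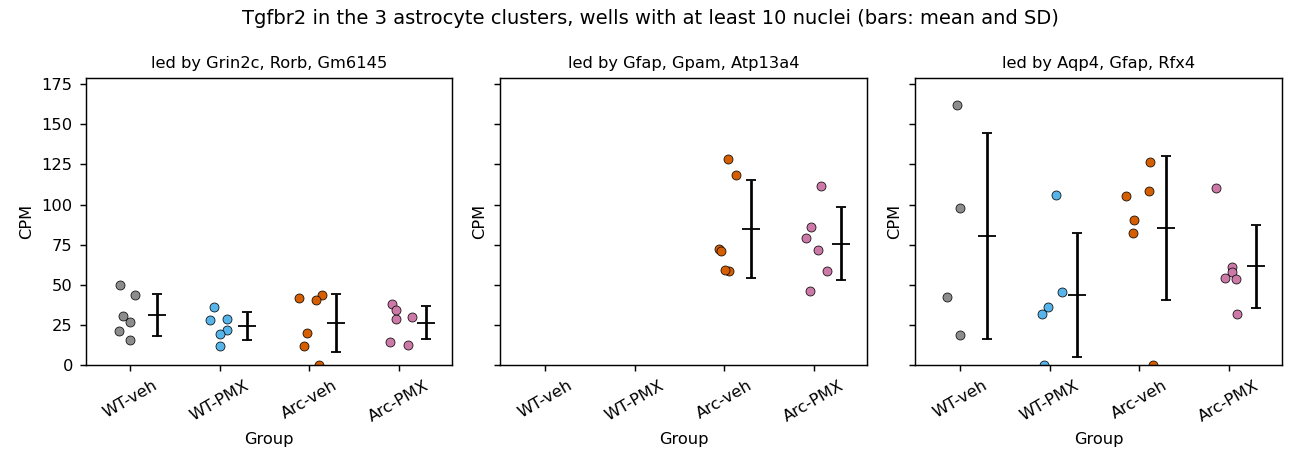
CPM of *Tgfbr2* per well (points) in each of the 3 astrocyte clusters, wells with at least 10 nuclei of the cluster, with mean and SD; panels are named by their leading genes and share 1 axis. The 4 groups overlap in the cluster led by *Grin2c*, and only Arc wells have enough nuclei in the cluster led by *Gfap*.

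Dentate granule neurons also fell into 3 clusters, whose differences were not tested against each other. In the largest, led by *Smoc2*, *Tgfbr2* was at 1.73 ± 1.59 and 1.54 ± 1.17 CPM in WT-veh and WT-PMX and at 7.34 ± 4.95 and 8.81 ± 3.62 CPM in Arc-veh and Arc-PMX. This cluster held 51.0% and 49.6% of WT and 66.1% and 60.7% of Arc granule neurons. In a cluster led by *Trpc6* and *Fam163b*, with 41.5% and 40.4% of WT-veh and WT-PMX but 19.4% and 26.3% of Arc-veh and Arc-PMX neurons, *Tgfbr2* was at 6.19 ± 3.95, 7.95 ± 6.77, 10.4 ± 4.90 and 9.62 ± 3.45 CPM, and the wells of the 4 groups overlapped. In the smallest, led by *Trpc6* and *Chst9*, it was at 4.63 ± 4.37, 7.26 ± 6.53, 4.96 ± 4.06 and 18.5 ± 11.5 CPM, so that Arc-veh was not above WT-PMX. Microglia formed 1 cluster.

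*Tgfb2* was lower in Arc than in WT dentate granule neurons. The wells ranged from 50.8 to 77.4 CPM in WT-veh (median 67.9), 60.0 to 71.6 CPM in WT-PMX (median 64.2), 35.3 to 57.5 CPM in Arc-veh (median 49.2) and 33.5 to 52.0 CPM in Arc-PMX (median 47.7). Only 1 WT well, WT-veh M3, was within the Arc range. The means were 66.1 ± 6.84 CPM in WT and 47.1 ± 6.96 CPM in Arc (12 wells each), which is a log2 fold change of -0.49 ± 0.08 (adjusted p = 0.000676), and it was -0.48 ± 0.12 with vehicle alone (adjusted p = 0.0873), which was not called. In the largest cluster of granule neurons the means were 67.3 and 70.8 CPM in WT-veh and WT-PMX and 52.8 and 45.9 CPM in Arc-veh and Arc-PMX. In the cluster led by *Trpc6* and *Fam163b* they were 70.7, 70.0, 43.9 and 63.1 CPM in that order, with Arc-PMX near the WT groups. In the smallest, led by *Trpc6* and *Chst9*, they were 52.9, 31.7, 31.9 and 31.4 CPM, with WT-PMX at the level of Arc. The part of the depth given for *Tgfbr2* in these nuclei was not tested. In the 5 other types tested for *Tgfb2* the log2 fold changes between genotypes ranged from -0.16 to 0.17 and none was called.

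*Tgfbr1* in microglia was at 2524, 2839, 3070 and 3457 CPM in WT-veh and at 1873, 2555, 2669, 2810 and 3083 CPM in WT-PMX. It was at 1693 to 2764 CPM in Arc-veh (median 1999) and 1320 to 2512 CPM in Arc-PMX (median 2282), so the genotypes overlapped. The means were 2764 ± 445 CPM (n = 9) and 2056 ± 461 CPM (n = 12), a log2 fold change of -0.39 ± 0.12 (adjusted p = 0.0202), opposite in sign to that of its partner *Tgfbr2* in the same nuclei. The microglial, dentate granule and *Slc17a6* neuron markers given for *Tgfbr2* were also lower in these Arc nuclei, and their part was not tested. With vehicle alone the *Tgfbr1* value was -0.49 ± 0.18 (adjusted p = 0.0724). Leaving out 1 well moved this between -0.58 and -0.28 (adjusted p = 0.0362 to 0.541, edgeR), and it was called without Arc-PMX F1 or Arc-veh M2. Over both waters the call was lost without WT-veh F2 (-0.27, adjusted p = 0.18) and without Arc-veh M3 (-0.34, adjusted p = 0.051). When all nuclei were named one by one from their marker scores, the value over both waters was 0.06. Naming only the 967 nuclei of the unnamed cluster in this way gave 0.05 ± 0.22 (adjusted p = 0.933), an alternative chosen after the results were seen. These namings also raised the median gene in microglia, by 0.10 with all nuclei and by 0.12 with only that cluster. The *Tgfbr1* value was -0.02 when no filter on low counts was used, a setting that raised the median gene in microglia by 0.35.

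*Tgfbr3* in oligodendrocytes ranged from 0 to 91.0 CPM in WT-veh (median 31.7), 20.5 to 49.8 CPM in WT-PMX (median 34.9), 42.0 to 74.6 CPM in Arc-veh (median 64.8) and 66.4 to 119 CPM in Arc-PMX (median 77.5). All Arc-PMX wells were above all WT-PMX wells, whereas the spread of WT-veh covered the whole Arc-veh range. The means were 39.3 ± 25.7 CPM and 72.5 ± 19.9 CPM (12 wells each), which is a log2 fold change of 0.92 ± 0.21 (adjusted p = 0.00302), and with vehicle alone it was 0.69 ± 0.31 and not called (adjusted p = 0.365). Leaving out 1 well moved the latter between 0.53 (without WT-veh M1) and 1.11 (without WT-veh F1), and it was called in none of these refits (adjusted p = 0.0746 to 0.653, edgeR). Few oligodendrocytes were in some WT-veh wells, with 15 nuclei in F3 as the lowest count. Astrocyte markers summed to 242 to 933 CPM (median 423) in WT and 215 to 328 CPM (median 263) in Arc oligodendrocytes, median depth was 1086 and 1386 transcripts per nucleus, and the part of these in the difference was not tested. When nuclei were named one by one from marker scores, which gave 4833 oligodendrocytes in place of 4159, the difference was -0.035. With only the unnamed cluster named in this way it was 0.30 ± 0.19 and not called (adjusted p = 0.466).

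**Figure D4:**
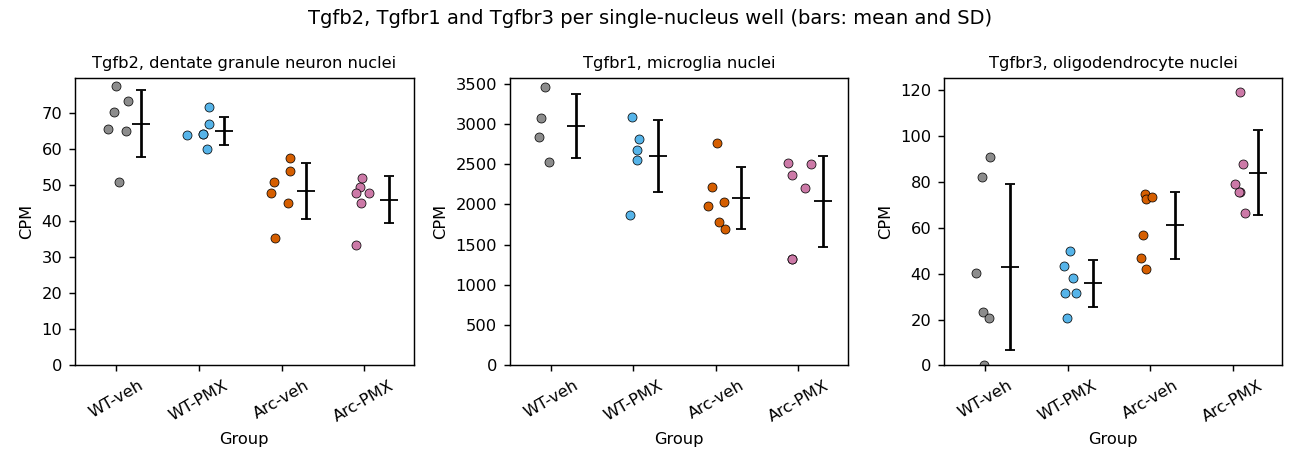
CPM per well (points) with the mean and SD of each group for *Tgfb2* in dentate granule neurons, *Tgfbr1* in microglia and *Tgfbr3* in oligodendrocytes; the y axes start at 0. *Tgfb2* and *Tgfbr1* lie lower and *Tgfbr3* higher in Arc wells, with overlap between genotypes in each panel.

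Several members held no called difference. *Smad3* was at 427 ± 115 CPM in WT and 349 ± 65.6 CPM in Arc microglia (log2 fold change -0.28 ± 0.18, adjusted p = 0.306). *Tgfb1* in microglia was at 121 to 261 CPM in WT-veh, 85.2 to 624 CPM in WT-PMX, 134 to 168 CPM in Arc-veh and 85.5 to 460 CPM in Arc-PMX, and did not pass the test (-0.30 ± 0.28, adjusted p = 0.513). *Smad7* in oligodendrocytes was at 193 ± 54.9 and 211 ± 53.7 CPM (adjusted p = 0.503). *Smad2* had positive values in all 5 neuronal types, from 0.18 to 0.24, 4 of them with an unadjusted p under 0.05 but none called (lowest adjusted p = 0.532). *Bmp5* in fibroblasts was at 197 ± 77.2 and 201 ± 75.7 CPM.

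In astrocytes, *Tgfb3* and *Bmp5* had too few counts for the main fit. *Tgfb3* was at 0 to 8.93 CPM in WT-veh, 6.26 to 19.6 CPM in WT-PMX, 11.6 to 25.5 CPM in Arc-veh and 4.25 to 28.2 CPM in Arc-PMX, so that the vehicle groups did not overlap while the PMX205 groups did. *Bmp5* was at 0 in 9 of 12 WT wells, and its mean was 0.686 CPM in WT and 4.62 CPM in Arc. Without a filter on low counts, both were called between genotypes, *Tgfb3* with a log2 fold change of 1.12 ± 0.32 (adjusted p = 0.00969) and *Bmp5* with 2.12 ± 0.61 (adjusted p = 0.00948). With vehicle alone *Tgfb3* was at 1.85 ± 0.48 (adjusted p = 0.00512), whereas *Bmp5* was at 0.85 ± 0.81 and not called (adjusted p = 0.741, edgeR). These were the only 2 calls among the 49 combinations that the filter had removed and that held any count. *Bmp5* in astrocytes rests on 38 transcripts in 5442 nuclei.

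PMX205 gave no called difference in any member. In Arc mice 0 of 58 combinations were called, and 0.0057% of all genes and types (4 of 70175) were called. An unadjusted p under 0.05 was found for 1 of the 58 and for 1973 of the 70175. In WT mice 0 were called (background 0%). There 5 had an unadjusted p under 0.05, against 2520 of 70175 over all genes and types. For the difference between the effects in the 2 genotypes 0 were called (background 0%). In that contrast 0 had an unadjusted p under 0.05, against 2390 of 70175. DESeq2 called none in any of these contrasts either. The log2 fold changes of Arc-PMX against Arc-veh ranged from -0.86 to 0.74 with a median standard error of 0.25.

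The values that bear on the ligand and receptor question were these. *Tgfb2* in astrocytes was at 64.6 to 110 CPM in Arc-veh (median 86.2) and 80.7 to 154 CPM in Arc-PMX (median 99.8), overlapping groups, with a log2 fold change of 0.30 ± 0.16 (unadjusted p = 0.0773, edgeR) that was 0.17 without Arc-PMX F2, the highest well. *Tgfbr2* changed by 0.14 ± 0.14 in microglia, -0.17 ± 0.22 in astrocytes, 0.12 ± 0.49 in endothelial cells and 0.36 ± 0.27 in dentate granule neurons. The microglial value was -0.22 when all nuclei, or only those of the unnamed cluster, were named one by one. *Tgfbr1* in microglia changed by -0.05 ± 0.15 and *Smad3* by -0.11 ± 0.17. *Tgfb1* in microglia changed by 0.13 ± 0.26. The 1 combination with a low unadjusted p was *Smad2* in oligodendrocytes, at 23.7 ± 10.9 CPM in vehicle Arc mice and 37.7 ± 15.6 CPM after PMX205 (0.74 ± 0.36, unadjusted p = 0.047 by edgeR). In fibroblasts *Tgfbr3* was at 929, 1072 and 1211 CPM in Arc-veh and 330, 653 and 697 CPM in Arc-PMX, groups of 3 wells that did not overlap, with a log2 fold change of -0.86 ± 0.41 (unadjusted p = 0.0594, edgeR).

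**Figure D5:**
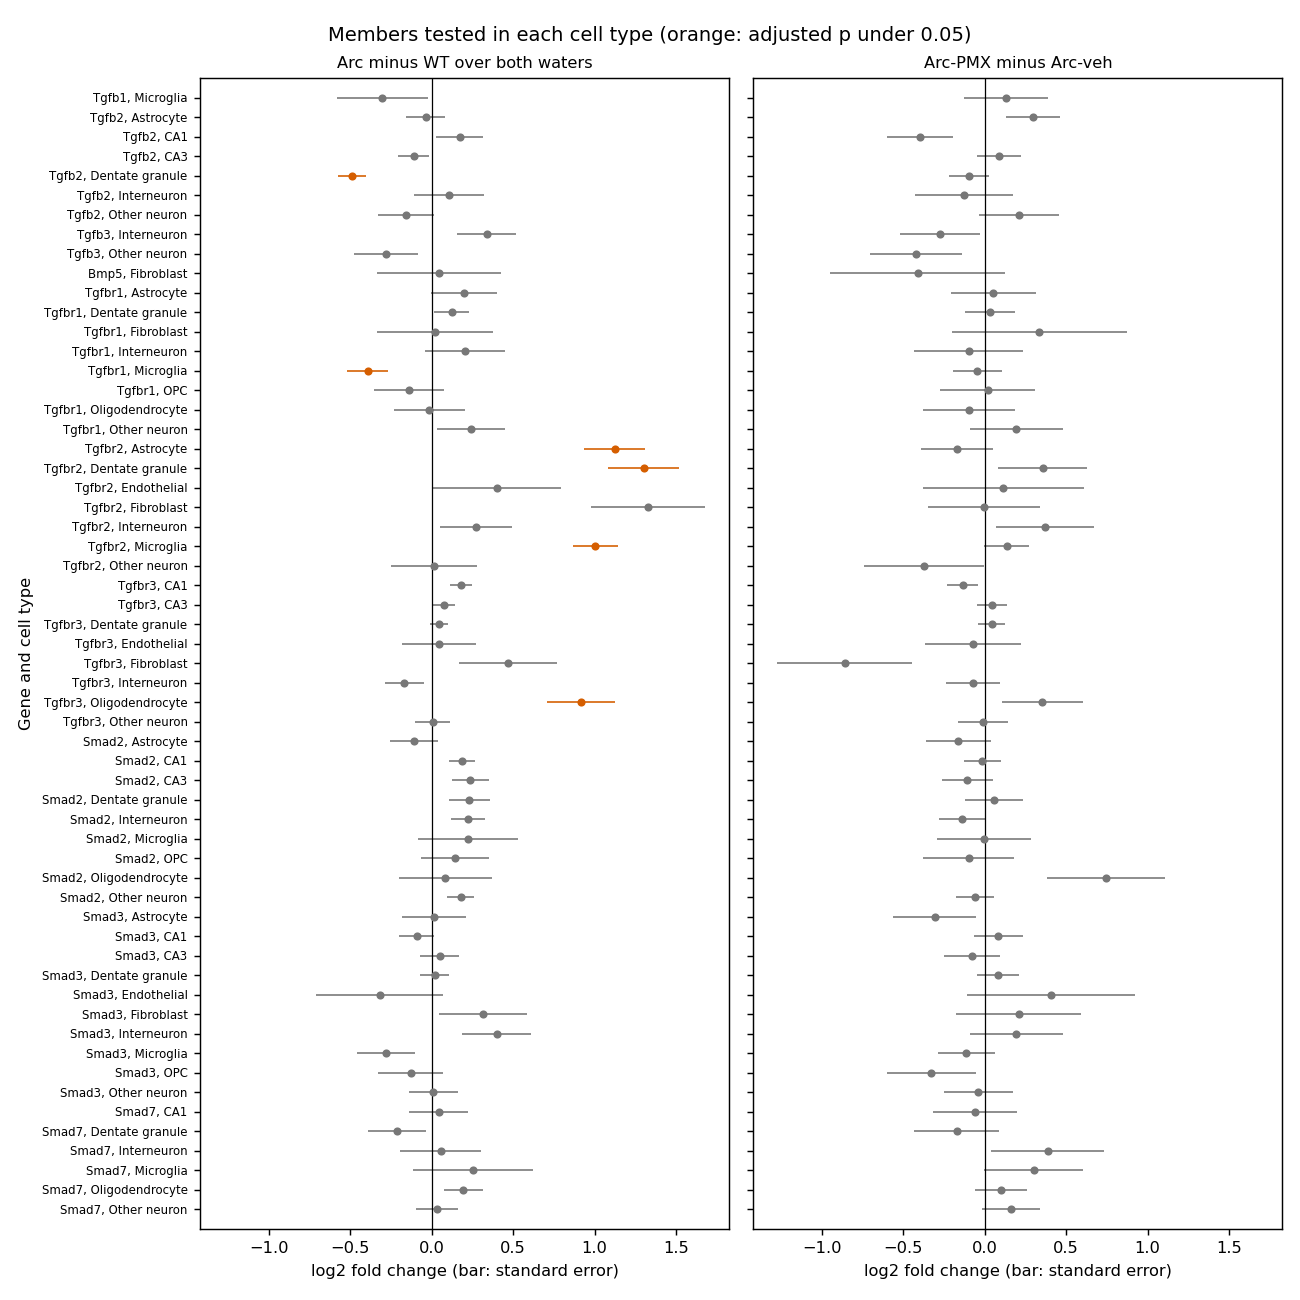
Log2 fold change (points) and its standard error (bars) of each member in each cell type tested, for Arc minus WT over both waters (left) and Arc-PMX minus Arc-veh (right). The 6 called differences, in orange, are all on the left, and the largest are those of *Tgfbr2*.

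CD11b-selected single cells from the same study gave a second view of microglia, in wells that each pooled cells of several mice. They are shown side by side with the nuclei, and differences between their groups were not tested. Wells with at least 10 microglia numbered 3 in WT-veh, 3 in WT-PMX, 5 in Arc-veh and 6 in Arc-PMX. *Tgfbr2* was at 99.2 to 645 CPM in WT-veh (mean 423), 357 to 813 CPM in WT-PMX (mean 562), 570 to 1039 CPM in Arc-veh (mean 768) and 569 to 955 CPM in Arc-PMX (mean 756). Both Arc means were above both WT means, as in nuclei, with overlap between wells. The Arc-PMX and Arc-veh means were close here and their wells overlapped, so no direction between them is read. In nuclei the log2 fold change of Arc-PMX against Arc-veh was 0.14 with naming by cluster. It was -0.22 with all nuclei, or only those of the unnamed cluster, named one by one, and called in no setting. *Tgfbr1* was at 2390, 2282, 1848 and 2130 CPM in the same order of groups. *Smad3* was at 361 to 496 CPM in WT-veh, 506 to 650 CPM in WT-PMX, 146 to 450 CPM in Arc-veh and 218 to 357 CPM in Arc-PMX. *Tgfb1* was at 213, 240, 99.1 and 90.2 CPM. The WT values rest on few molecules: 37 and 54 *Tgfbr2* transcripts were counted in 105 WT-veh and 140 WT-PMX cells, against 1364 in 1338 Arc-veh cells. *Tgfb3* was not counted in these cells either.

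Of 81 names of other pathway genes, chosen for their function, *Ccn2* and *Ctgf* are the same gene. The matrices held 80 of the names, and 56 had enough counts in at least 1 type, giving 304 combinations. Between Arc and WT over both waters 11 were higher and 6 lower (5.59%, against 3.53% of all genes and types), and with vehicle alone 4 were higher and 4 lower (2.63%, against 1.95%). The median log2 fold change over both waters was 0.02 for the list. Astrocytes held 8 of the 17 calls, 7 higher and 1 lower out of 36 genes tested, a share of 22.2% against 19.9% of all genes in astrocytes.

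Among the receptors, *Acvr1b*, the type I activin receptor, was at 19.9 ± 11.9 CPM in WT and 56.8 ± 14.2 CPM in Arc astrocytes (log2 fold change 1.47 ± 0.20, adjusted p = 1.72e-07). *Neo1*, the neogenin receptor, which also binds BMP coreceptors, was lower in Arc astrocytes, at 374 ± 58.0 and 303 ± 52.5 CPM (-0.33 ± 0.08, adjusted p = 0.00288). *Eng*, the endothelial coreceptor endoglin, was at 124 ± 74.0 CPM in WT and 36.8 ± 15.9 CPM in Arc microglia (-1.70 ± 0.39, adjusted p = 0.00118), which is opposite in direction to the endothelial marker list there. Among the ligands, *Bmp6* was at 55.3 ± 19.4 and 92.7 ± 21.9 CPM in astrocytes (0.69 ± 0.16, adjusted p = 0.000894).

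Among the inhibitors, *Ski*, a corepressor that binds Smads, was at 119 ± 19.1 CPM in WT and 180 ± 49.8 CPM in Arc astrocytes (0.52 ± 0.11, adjusted p = 0.000401). *Fstl1*, a secreted follistatin-like protein, was at 108 ± 24.6 and 165 ± 20.2 CPM (0.60 ± 0.10, adjusted p = 2.1e-05). *Fstl4*, placed among the inhibitors by the list alone, moved in opposite directions in 2 types. Its action on the pathway was not tested. It was at 22.7 to 198 CPM in WT OPCs and 242 to 721 CPM in Arc OPCs, without overlap (2.31 ± 0.21, adjusted p = 2.44e-10), and at 716 ± 48.9 and 557 ± 81.3 CPM in dentate granule neurons (-0.36 ± 0.06, adjusted p = 0.000921). The 7 other Smads and adaptors on the list, tested in 48 combinations, held no call, and neither did the 9 pathway targets tested over both waters. With vehicle alone 1 target was called, *Tsc22d1*, named here after its values were seen, which was lower in Arc astrocytes (-0.42 ± 0.14, adjusted p = 0.0488). PMX205 gave no call on the list in either genotype, with 12 of 304 combinations at an unadjusted p under 0.05 in Arc mice and 10 in WT mice. Over all genes and types these counts were 1973 and 2520 of 70175.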

How the data were processed

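Deposited values are whole transcript counts per barcode and gene, not normalized, which the authors obtained from split-pipe (Parse Biosciences) with mm10 as genome after demultiplexing by bcl2fastq; tool versions are not given in the sources used here. The 7 deposited libraries are sublibraries of 1 run, so counts were summed over them by first-round well, with group and sex from the deposited sample sheet. Nuclei needed more than 300 and fewer than 50000 transcripts, more than 400 genes and under 1% mitochondrial transcripts, and CD11b-selected cells more than 300 genes and under 10%. Scrublet (scanpy 1.11.5) marked doublets at a score above 0.25, or 2.77% of nuclei, which were removed. Barcode combinations found in more than 1 sublibrary numbered 4216 and were kept as separate nuclei. Leiden clusters (leidenalg 0.10.2, resolution 1.5, 2000 variable genes, 30 components) were named from markers, by scoring rules set after clusters had been seen.

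Counts per well and type were compared by edgeR 4.0.16 (R 4.3.3; TMM, filterByExpr, glmQLFTest, sex as covariate, 4 groups in 1 fit) with Benjamini-Hochberg adjustment at 0.05. Neighbouring types were compared by sign-flip permutation of log2(CPM + 1) with 100000 resamples, or exactly below 10 wells, adjusted over all 130 pairs (scipy 1.17.1). Members, gene lists and tests were chosen with earlier results of these data known. Named are all members, of the pathway list at most 5 called genes per contrast by adjusted p, and per member the 3 genes most correlated over types with a mean of at least 10 CPM, of which 1 is not reported here. CPM of a summed well has counting error that falls with depth. Alternatives were RLE scaling, no sex term, DESeq2 1.42.0, no low-count filter, a replicate block, doublets kept, over 500 transcripts and genes, naming by marker score, wells of 20 nuclei and leaving out wells. The largest cluster of each type, and naming 1 unnamed cluster by marker score, were added as alternatives after the data had been seen.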

Additional observations from a re-analysis of the deposited data

Results flagged for a closer look

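Single wells were flagged where they stood apart from the other wells of their group, by the size of the gap relative to the range. The cut-offs flag about 1 in 20 groups by chance only if values are normally distributed. Sparse counts are not, and a group with counts in only 1 well is always flagged, so that rate does not apply here. Flagged wells were found in 9 of 82 groups of 4 to 6 wells. *Tgfb1* in microglia gave 3 of them: 460 CPM in Arc-PMX F3 (others 85.5 to 185 CPM), 624 CPM in WT-PMX F2 (others 85.2 to 237 CPM, from 5 transcripts in 12 nuclei) and, as a low value, 134 CPM in Arc-veh F1 (others 157 to 168 CPM). *Tgfb3* gave 3: 19.6 CPM in astrocytes of WT-PMX F2 (others 6.26 to 8.41 CPM), 82.1 CPM in oligodendrocytes of WT-veh F3 (1 transcript in 15 nuclei) and 147 CPM in pericytes or mural cells of Arc-PMX M1 (2 transcripts in 15 nuclei). *Tgfb2* in astrocytes was at 154 CPM in Arc-PMX F2 (others 80.7 to 104 CPM). *Smad2* in astrocytes was at 97.5 CPM in Arc-veh M1 (others 54.2 to 66.7 CPM). *Bmp5* in astrocytes was at 1.83 CPM in WT-PMX M1, which is 1 transcript, with the others at 0.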

How the results depend on the processing

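The 6 calls between Arc and WT over both waters were the same 6 under RLE scaling, DESeq2, no sex term, doublets kept, over 500 transcripts and genes and wells of 20 nuclei. For Arc-veh minus WT-veh, 4 were called in place of 2 with DESeq2 (*Tgfb2* and *Tgfbr2* in dentate granule neurons added) and 4 with no filter on low counts, and leaving out 1 well gave 2 to 4, the 4 without Arc-PMX F1 or WT-veh M3. Naming nuclei by their highest marker score gave 16 differing neighbours among 150 pairs of 16 cell types in place of 34 among 130 pairs of 14. It turned 5 values: *Tgfbr1* in microglia to 0.021 (Arc-veh minus WT-veh) and 0.059 (Arc minus WT), *Tgfbr3* in oligodendrocytes to -0.27 and -0.035, and *Tgfbr2* in microglia to -0.22 (Arc-PMX minus Arc-veh). That naming gave 2140 microglia, of which 1488 were among the 1509 named by cluster. Naming only the 967 nuclei of the unnamed cluster by score, chosen after the results were seen, left 4 of the 6 calls over both waters and took *Tgfbr1* in microglia to 0.045 (Arc-veh minus WT-veh) and 0.052 (Arc minus WT), *Tgfbr3* in oligodendrocytes to -0.16 and 0.30, and *Tgfbr2* in microglia to -0.22 (Arc-PMX minus Arc-veh), so that the naming of this cluster alone was enough to lose both calls. Under naming of all nuclei by score *Tgfb2* in dentate granule neurons and the 3 *Tgfbr2* calls were kept, and *Smad7* and *Tgfbr2* in oligodendrocytes were called in addition. With no filter on low counts the median shift of the genes tested in microglia was 0.35 between genotypes, while RLE scaling shifted no median by more than 0.0824. Over both waters the median shift in microglia was 0.10 with all nuclei named by score and 0.12 with only the unnamed cluster named so. Without 1 well, *Tgfbr1* in microglia was between -0.46 and -0.27 over both waters, and the calls of *Tgfbr2* and *Tgfb2* over both waters and of *Tgfbr3* were kept in all 24 refits. *Tgfb3* in astrocytes passed the filter and the test in part of these refits, and also without WT-veh F3 and M3 together, where 3 were called with vehicle alone. With the largest cluster of each type, the other 5 calls over both waters were kept and *Tgfbr2* in astrocytes could not be fitted. The replicate block, which treats wells of equal sex and number as a pair, left the counts of calls at 2, 0, 0, 0 and 6. The median correlation of same-numbered wells was -0.0439 in astrocytes and -0.0927 in microglia. For differently numbered wells it was -0.0596 and -0.0818. Whether the numbers pair the wells was not tested.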

Other observations

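Some small populations were too few for any comparison of members. The 49 nuclei with T cell markers held 32 transcripts of *Tgfbr2*, 14 of *Tgfbr1*, 10 of *Smad2*, 7 of *Smad7* and 4 of *Tgfb1* among 54034 transcripts, and none of *Tgfb2*, *Tgfb3* or *Bmp5*. The 119 nuclei with Cajal-Retzius markers held 14 transcripts of *Smad2*, 13 of *Tgfbr3* and 8 of *Bmp5* among 188448.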
